A study of Mus musculus with 12 samples.

Results

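The genes described here encode the machinery that brings proteins into mitochondria and keeps them folded: the outer-membrane translocase (TOM), the inner-membrane translocases (TIM23 and TIM22), the processing peptidase, the matrix chaperones, the quality-control proteases and the prohibitins. They were chosen by symbol, as protein-coding genes named Timm or Tomm plus 16 listed genes, with earlier results of these data known. This gave 42 genes of the 53379 listed in the count files, and 38 of the 42 passed the filter on low counts, against 16554 of all genes. RNA was sequenced from perigonadal white fat of 9-week-old C57BL/6 mice with an adipose-specific knockout of Cdk7 (CDK7 aKO, ko in the titles) and of control littermates (wt). Each genotype received either CL or saline for 7 days, which gave the groups wt saline, wt CL, ko saline and ko CL. All mice were killed at zeitgeber time 9. The labels do not spell out CL, an abbreviation widely used in fat research for a β3-adrenergic agonist, and they name neither the Cre driver nor the allele. Each of the 4 groups had 3 libraries, each pooled from the RNA of 2 mice (250 ng each), so a group stands for 6 mice and the p-values below measure the spread between pools.

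Most mitochondrial proteins are made in the cytosol and carry signals that TOM receptors recognise. Precursors with an N-terminal presequence pass to TIM23 and are pulled into the matrix by a motor built on mitochondrial Hsp70 (Hspa9), carriers of the inner membrane are inserted by TIM22 with the help of small TIM chaperones of the intermembrane space, and the matrix peptidase removes the presequence. In white fat, β-adrenergic stimulation is known to raise mitochondrial content and thermogenic genes.

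The promoter letters of these genes were looked at first, because many members moved together. RefSeq promoters (GRCm38.p6, 250 bases before to 50 bases after the start site) were used for 36 of the 42 members and gave 39 member promoters out of 32851. Afg3l2, Hspa9, Htra2, Timm21, Tomm40l and Tomm7 are named only. Elements of 6 kinds were searched on both strands. The heat shock element was searched as GAA, TTC and GAA units in alternation, each 2 bases of any kind from the next, and stood in 7.69% of member promoters (Hspd1, Hspe1 and Timm9) against 0.603% of all promoters. The matches of Hspd1 and Hspe1 are the same bases of their shared promoter region and are counted in both. The GABPA element CCGGAAGT stood in 23.1% (9 promoters) against 3.89%. The 9 include those of Timm10b and Timm8a2, which did not pass the filter on low counts and have no tested response. All promoters were counted here whether or not their genes were detected in these libraries. The NRF1 element stood in 12.8% against 4.6%, the ERR element TCAAGGTCA in 2.56% (Timm8b) against 0.423%, the YY1 element in 2.56% (Timm50) against 0.633% and the cAMP response element TGACGTCA in 2.56% (Trap1) against 1.79%. A match is a description of the letters and not of binding, and some elements share letters with others. The windows of 30 bases below are shown 5′ to 3′ on the strand of the gene, with the element in capitals. They are a selection of the members with a heat shock, cAMP response, ERR or GABPA element whose response is described later. Phb2, Timm10, Timm29 and Timmdc1 also have a GABPA element but no window, and the heat shock element of Hspd1 is shown only in the Hspe1 window. The Hspe1 window holds 2 overlapping matches. It lies among the 215 bases between the RefSeq start site of Hspe1 (55088148) and 1 RefSeq start site of Hspd1 (55087932). From these sites the genes are transcribed away from each other. Another RefSeq start site of Hspd1 (55088243) lies beyond that of Hspe1, so from there the transcripts overlap. In GENCODE the windows of Trap1 and Tomm70a touch no exon, whereas that of Hspe1 touches an exon of a longer Hspd1 transcript, that of Pmpcb its own first exon and those of Timm9, Timm8b and Timm23 an exon of a neighbouring gene.
Hspe1, heat shock element, chr1:55088053-55088082 (+): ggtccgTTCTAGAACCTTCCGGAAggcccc
Timm9, heat shock element, chr12:71136856-71136885 (-): attaggctTTCTAGAAATTTCgacagattc
Trap1, cAMP response element, chr16:4077839-4077868 (-): gtcgcgcgccaTGACGTCActgagccgccc
Timm8b, ERR element, chr9:50603795-50603824 (+): tttcgagggcTCAAGGTCActctacaaccc
Timm23, GABPA element, chr14:32201921-32201950 (-): tcgcgcttcccACTTCCGGgccgcacacag
Tomm70a, GABPA element, chr16:57121623-57121652 (+): gccttctgaccCCGGAAGTggttctcccct
Pmpcb, GABPA element, chr5:21737133-21737162 (+): ggagtcatgacCCGGAAGTacatctccact

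The 12 libraries held 21892817 to 27985019 reads counted to genes. A genotype field in the labels went against the titles for 6 of the 12 libraries, so the groups are those of the titles. Cdk7 itself read 11.02 to 23.56 CPM (counts scaled to the library size after TMM normalization) in the 6 ko libraries and 29.3 to 35.4 CPM in the 6 wt libraries, without overlap (exact two-sided permutation test, p = 0.00216). With library size alone the ranges were 12.29 to 25.03 and 25.53 to 30.71 CPM, also without overlap. All 15 adipocyte markers were detected in every library, and their summed level was 65807 to 78863 CPM in wt and 24769 to 43241 CPM in ko. The 18 macrophage markers, none of them at 0, summed to 1048 to 2031 CPM in 9 libraries and to 11176, 12282 and 15528 CPM in the 3 ko CL libraries. One wt saline library (replicate 1) had more ciliated epithelium RNA than its group (42.1 CPM summed, against 14.3 and 14.4), and ko CL replicate 2 had more lymphocyte RNA (2602 CPM, against 417 and 474).

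Of the 42 genes, 4 did not reach the low-count filter. Tomm20l had 2 reads in all 12 libraries together, Timm8a2 had 5 and Timm10b had 34. Tomm6, a small TOM subunit, had 0 reads in every library, and 76% of its exon bases are shared on the same strand with Gm21981, which also had 0 reads. Whether that overlap bears on the missing reads was not tested. Among the 38 tested genes, levels per kilobase of exon in wt saline ran from 1.86 CPM per kb for Timm8a1 to 145 for Hspd1. Hspa9 stood at 126, Trap1 at 98.6 and Timm8b, a small TIM, at 69.1 on this scale, and the other 34 lay below these.

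CL treatment of wt fat was followed by higher RNA of nearly the whole group. By the quasi-likelihood test of edgeR (Benjamini-Hochberg adjusted p at 0.05), 33 of the 38 genes rose and 1 fell (Tomm34). However, with library size alone as the scaling only 21 rose, and of the 33 genes Tomm20, Tomm22, Tomm40l and Yme1l1 stood below 0. Over all genes tested, 19.6% were called higher and 17.1% lower. The median log2 fold change of the 38 was 0.61, a fold of 1.52, against -0.01 for all genes. Without any overlap between the 3 wt CL and the 3 wt saline libraries, 35 of the 38 were higher and 1 lower, against 26.6% and 24.4% of all genes. The summed CPM of the 42 genes was 3109 ± 62.8 (SD, n = 3) in wt saline and 5193 ± 145 in wt CL. Leaving out each library in turn kept 30 of the 33 higher calls (not Clpp, Tomm40 and Yme1l1) and the lower one. In the same comparison all 10 brown and beige adipocyte markers (median 2.89) and all 10 cell cycle genes (median 2.13) rose, whereas 14 of 18 macrophage markers (median -0.71), 8 of 11 fibroblast markers (median -0.58) and all 9 mesothelial markers (median -1.15) fell. Of the 15 adipocyte markers 2 rose and 3 fell (median 0.05), and of the 10 endothelial markers 5 rose and 1 fell (median 0.35). The summed brown and beige markers were 43.1 to 58.1 CPM in wt saline and 503 to 574 CPM in wt CL, and the summed macrophage markers 1908 to 2031 and 1048 to 1272 CPM. Their part in the members' values was not tested.

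**Figure D1:**
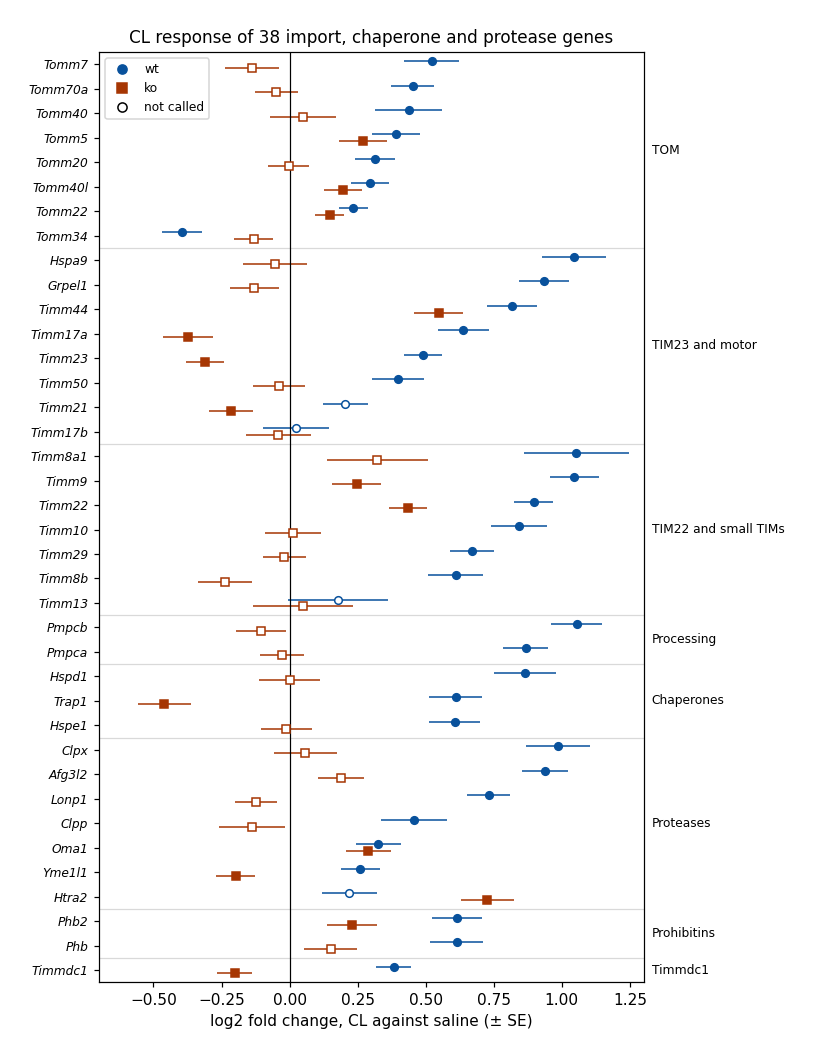
Log2 fold change of CL against saline with its standard error for the 38 tested genes, in wt (circles) and ko (squares), grouped by role; filled symbols are called at an adjusted p of 0.05 and open symbols are not. In wt 33 symbols are filled on the right of 0 and 1 (Tomm34) on the left. Of these 33, Tomm20, Tomm22, Tomm40l and Yme1l1 move below 0 with library size alone. In ko 9 are filled on the right and 6 on the left.

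Of the 8 genes for TIM23 and its motor, 6 rose in wt CL (median 0.56). Hspa9, the mitochondrial Hsp70 that pulls precursors inward, read 525, 552 and 554 CPM in the wt saline libraries, 1112, 1082 and 1169 in wt CL, 629, 553 and 583 in ko saline and 443, 609.6 and 649 in ko CL. The wt CL libraries lie far above the other 9, which overlap one another, and the CL response was 1.04 ± 0.12 (log2, SE; adjusted p = 2.94e-05) in wt and -0.05 ± 0.12 (adjusted p = 0.723) in ko. Grpel1 (chr5:36464998-36474080), its nucleotide exchange factor, read 83.4, 85.6 and 87.4 CPM in the wt saline libraries, 169, 157 and 165 in wt CL, 108, 105 and 109.8 in ko saline and 81.3, 103 and 110.4 in ko CL. Here too the wt CL libraries stand above the other 9, and the response was 0.94 ± 0.09 in wt (adjusted p = 1.07e-05) and -0.13 ± 0.09 in ko. Timm44 (chr8:4259731-4275913), which tethers the motor to the channel, was an exception: it read 49.9, 48.6 and 50.1 CPM in the wt saline libraries, 90.3, 86.9 and 84.8 in wt CL, 40.6, 40.8 and 45.1 in ko saline and 51.2, 66.9 and 67.1 in ko CL. Its groups did not overlap between CL and saline in either genotype, and it rose in both, by 0.82 ± 0.09 in wt and 0.55 ± 0.09 in ko (adjusted p = 0.000251), with a difference between the responses of -0.27 ± 0.13 that was not called (adjusted p = 0.107). The channel subunit Timm23 rose by 0.49 ± 0.07 in wt, and the receptor Timm50 by 0.40 ± 0.09. Timm21, a subunit that links TIM23 to respiratory complexes, had a wt response of 0.21 ± 0.08 that was not called (adjusted p = 0.0637).

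The paralogs Timm17a and Timm17b, alternative subunits of the TIM23 channel, are given side by side. Timm17a (chr1:135295213-135313778) read 77.95, 77.94 and 70.74 CPM in the wt saline libraries, 117, 106 and 129.7 in wt CL, 87.5, 92.3 and 80.6 in ko saline and 59.8, 66.5 and 74.8 in ko CL. It was thus highest in wt CL and lowest in ko CL, whose libraries overlapped neither ko saline nor wt CL. Its response was 0.64 ± 0.09 in wt (adjusted p = 0.000192) and -0.37 ± 0.09 in ko (adjusted p = 0.00429), and the difference between the responses was -1.01 ± 0.13 (adjusted p = 5.33e-05). Timm17b on the X chromosome read 17.4, 18.7 and 15.7 CPM in the wt saline libraries, 20.9, 15.2 and 16.5 in wt CL, 13.96, 17.1 and 15.99 in ko saline and 14.6, 16.3 and 14.8 in ko CL. Its 4 groups overlapped, with responses of 0.02 ± 0.12 in wt and -0.04 ± 0.12 in ko, neither of them called.

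Of the 9 genes for the carrier route (TIM22 and the small TIMs), 7 were tested and 6 rose in wt CL, with a median of 0.84. Timm9 (chr12:71123173-71136684), which forms the main small TIM hexamer with Timm10, read 22.5, 23.8 and 21.7 CPM in the wt saline libraries, 45.3, 47.9 and 47.2 in wt CL, 24.2, 23.2 and 23.1 in ko saline and 23.5, 28.8 and 31.4 in ko CL. The wt CL libraries stand above the other 9, and the ko CL libraries partly overlapped ko saline. Its response was 1.05 ± 0.09 in wt (adjusted p = 4.79e-06) and 0.25 ± 0.09 in ko (adjusted p = 0.0335). Timm22 (chr11:76406952-76416292), the channel of this route, read 21.9, 21.9 and 22.5 CPM in the wt saline libraries, 41.0, 41.4 and 41.1 in wt CL, 21.4, 20.9 and 20.8 in ko saline and 25.5, 29.0 and 31.1 in ko CL. It rose without overlap in both genotypes, by 0.90 ± 0.07 in wt and 0.44 ± 0.07 in ko, and the smaller ko response was called as a difference of -0.46 ± 0.10 (adjusted p = 0.0022). Timm29, a metazoan TIM22 subunit, read 49.3, 47.9 and 48.5 CPM in the wt saline libraries, 73.3, 78.5 and 80.0 in wt CL, 55.4, 48.99 and 50.6 in ko saline and 44.5, 53.1 and 55.4 in ko CL. Only its wt CL libraries stand apart (0.67 ± 0.08 in wt, -0.02 ± 0.08 in ko). Timm8a1, a small TIM and the least abundant gene tested, read 3.39, 2.6 and 1.92 CPM in the wt saline libraries, 5.76, 4.94 and 5.7 in wt CL, 3.3, 3.99 and 3.93 in ko saline and 4.19, 4.81 and 5.04 in ko CL. Its wt response of 1.05 ± 0.19 was called (adjusted p = 0.00101), and its ko response of 0.32 ± 0.19 was not, although the ko libraries did not overlap. Timm10 and Timm8b rose by 0.84 ± 0.10 and 0.61 ± 0.10 in wt, while Timm13 had a value of 0.18 ± 0.18 with overlapping libraries.

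Of the 8 outer-membrane genes tested, 7 rose in wt CL, with library size alone leaving Tomm20, Tomm22 and Tomm40l below 0, and the median was 0.35. Tomm70a (chr16:57121703-57156705), the receptor for carrier precursors, read 95.2, 99.4 and 88.1 CPM in the wt saline libraries, 121, 129.9 and 136 in wt CL, 115, 107 and 99.4 in ko saline and 97.3, 100.4 and 113 in ko CL. All 3 wt CL libraries exceed the other 9, and the response was 0.45 ± 0.08 in wt and -0.05 ± 0.08 in ko. The channel Tomm40 read 33.2, 32.4 and 28.1 CPM in the wt saline libraries, 48.0, 44.4 and 34.5 in wt CL, 30.9, 32.6 and 33.4 in ko saline and 28.4, 36.6 and 35.3 in ko CL. One wt CL library (replicate 3) lies among the ko CL libraries. The paralog Tomm40l read 36.1, 39.1 and 36.7 CPM in the wt saline libraries, 43.5, 45.6 and 48.1 in wt CL, 30.2, 33.8 and 33.3 in ko saline and 39.1, 34.5 and 37.9 in ko CL. With a wt response of 0.44 ± 0.12 for Tomm40 and 0.30 ± 0.07 for Tomm40l, both were called, and in ko only Tomm40l was (0.20 ± 0.07, adjusted p = 0.03); the difference between the wt and ko responses was called for neither. The wt call of Tomm40 was lost without wt saline replicate 3 (adjusted p = 0.0587), wt CL replicate 1 (adjusted p = 0.0633) or wt CL replicate 2 (adjusted p = 0.0510). For Tomm40l, 64.3% of the exon bases overlap Nr1i3 on the opposite strand, a gene with 22 reads in all. Tomm34, a cytosolic cochaperone that binds Hsp70 and Hsp90 rather than a subunit of the pore, read 44.9, 44.2 and 43.6 CPM in the wt saline libraries, 34.3, 33.6 and 32.9 in wt CL, 40.5, 44.9 and 45.2 in ko saline and 42.4, 41.1 and 35.5 in ko CL. It was the member that fell in wt CL (-0.40 ± 0.07, adjusted p = 0.00102), and its ko CL libraries overlapped ko saline.

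Both subunits of the matrix processing peptidase rose. Pmpcb (chr5:21737141-21757152), the catalytic subunit, read 124, 132 and 140.1 CPM in the wt saline libraries, 269, 261 and 292 in wt CL, 151, 133 and 139 in ko saline and 113, 146 and 135 in ko CL. The wt CL libraries lie at 261 or more and the other 9 between 113 and 151, and the response was 1.05 ± 0.09 in wt (adjusted p = 5.97e-06), a fold of 2.08, against -0.10 ± 0.09 in ko. Pmpca (chr2:26389339-26397122), which recognises the presequence, read 106, 105 and 116 CPM in the wt saline libraries, 198, 194 and 204 in wt CL, 146, 124 and 125 in ko saline and 117, 135 and 135 in ko CL. It rose by 0.87 ± 0.08 in wt, and its ko response was -0.03 ± 0.08 with overlapping libraries. Of its exon bases, 20.4% overlap Inpp5e on the other strand, which stood at 19.7 to 22.9 CPM as group means.

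**Figure D2:**
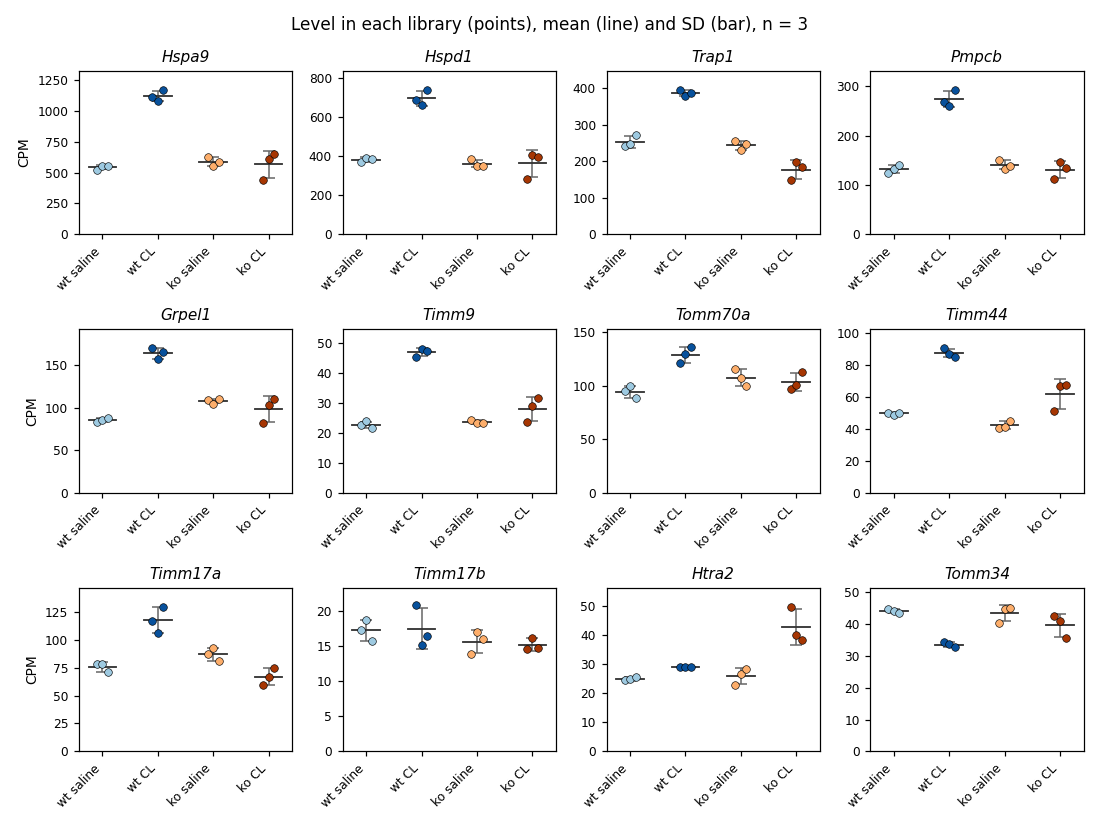
Level in CPM of 12 genes in each library (points), with the mean (line) and SD (bar) of the 3 libraries per group; each panel starts at 0. For Hspa9, Hspd1, Pmpcb, Grpel1 and Timm9 the 3 wt CL libraries stand above the other 9, Trap1 and Timm17a are lowest in ko CL, Htra2 is highest in ko CL and Timm17b overlaps throughout.

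The matrix folding chaperones all rose in wt CL and none rose in ko. Hspd1 (Hsp60, chr1:55077835-55088243) read 370.0, 391 and 387 CPM in the wt saline libraries, 689.6, 662 and 738 in wt CL, 384, 351 and 351 in ko saline and 285, 406 and 397 in ko CL. Its response was 0.86 ± 0.11 in wt (adjusted p = 8.76e-05) and 0.00 ± 0.11 in ko, and its partner Hspe1 (Hsp10), the gene on the other side of the printed heat shock element, went from 48.8 ± 3.6 to 74.3 ± 6.6 CPM in wt (0.61 ± 0.09) and stood at 48.8 ± 2.0 and 48.5 ± 6.1 CPM in ko (all SD, n = 3). Trap1 (chr16:4039971-4077827), the mitochondrial Hsp90, read 241, 248 and 272 CPM in the wt saline libraries, 395, 380.0 and 386 in wt CL, 255, 230.1 and 247 in ko saline and 148, 199 and 185 in ko CL. It moved in opposite directions without overlap: up by 0.61 ± 0.10 in wt and down in ko, with a log2 value of -0.46 ± 0.10 (adjusted p = 0.00141), and the difference between the responses was -1.07 ± 0.14 (adjusted p = 4.63e-05).

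Among the 7 proteases, 6 rose in wt CL, and the median was 0.46. Of these 6, library size alone put Yme1l1 below 0. The matrix unfoldase Clpx rose by 0.98 ± 0.12, the m-AAA subunit Afg3l2 by 0.94 ± 0.09 and the Lon protease Lonp1 by 0.73 ± 0.08. The peptidase Clpp, which works with Clpx, rose by 0.46 ± 0.12, although not without wt saline replicate 1 (adjusted p = 0.0531), and Oma1 by 0.33 ± 0.08. Yme1l1 (chr2:23156369-23199260), the i-AAA protease, read 146, 156 and 148 CPM in the wt saline libraries, 170.2, 173 and 195 in wt CL, 188, 178 and 164 in ko saline and 149.6, 156 and 156 in ko CL. It was high in wt CL and ko saline and low in the other groups, with a response of 0.26 ± 0.07 in wt (adjusted p = 0.0125) and -0.20 ± 0.07 in ko (adjusted p = 0.0316). The wt call was lost without wt saline replicate 1 (adjusted p = 0.0653) or wt CL replicate 3 (adjusted p = 0.061), and the ko call without ko saline replicate 1 (adjusted p = 0.0631).

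Htra2 (chr6:83051266-83055273), a protease of the intermembrane space, ran against the group. It read 24.5, 24.9 and 25.7 CPM in the wt saline libraries, 29.1, 29.1 and 29.3 in wt CL, 22.8, 26.5 and 28.3 in ko saline and 49.97, 40.01 and 38.5 in ko CL. The 3 ko CL libraries were the highest of the 12. The response was 0.22 ± 0.10 in wt, which was not called (adjusted p = 0.106), and 0.73 ± 0.10 in ko (adjusted p = 4.41e-05), with a difference of 0.51 ± 0.14 (adjusted p = 0.0103). The highest library, ko CL replicate 1, is also the one with the highest macrophage sum and the lowest adipocyte sum. Without it the Htra2 response in ko was 0.57 (adjusted p = 8.86e-05) and the difference 0.37 (adjusted p = 0.0167). Aup1 and Loxl3 overlap 25.6% and 18.2% of the Htra2 exon bases on the other strand and stood at 68.2 and 14.2 CPM in ko saline and at 93.4 and 27.8 CPM in ko CL. Their part in the Htra2 count was not tested.

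The prohibitins, which form a ring scaffold in the inner membrane, both rose in wt. Phb (chr11:95666957-95680773) read 70.3, 69.1 and 70.8 CPM in the wt saline libraries, 116, 101 and 106 in wt CL, 60.5, 61.0 and 61.0 in ko saline and 54.9, 71.9 and 76.0 in ko CL. Phb2 (chr6:124712336-124716950) read 96.6, 93.1 and 91.6 CPM in the wt saline libraries, 148, 147 and 136 in wt CL, 91.4, 93.6 and 102 in ko saline and 93.8, 121 and 122 in ko CL. The wt CL libraries were the highest of both genes, and in ko CL replicate 1 was the lowest of its group in both. The responses in wt were 0.61 ± 0.10 for Phb and 0.62 ± 0.09 for Phb2, and in ko 0.15 ± 0.10 (not called) and 0.23 ± 0.09 (adjusted p = 0.0473). Without ko CL replicate 1 the ko response of Phb was 0.25 and was called (adjusted p = 0.00597), and with DESeq2 that of Phb2 was not called (adjusted p = 0.0513). Timmdc1, an assembly factor of complex I named for its TIM domain, read 18.3, 19.5 and 19.1 CPM in the wt saline libraries, 24.9, 24.1 and 25.1 in wt CL, 20.9, 20.4 and 21.5 in ko saline and 17.4, 18.2 and 18.9 in ko CL. It rose by 0.38 ± 0.06 in wt and fell in ko, where the log2 value was -0.20 ± 0.06 (adjusted p = 0.016).

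Seen as a group, the ko response to CL had no common direction. Of the 38 genes, 9 rose and 6 fell, against 27.2% and 27.5% of all genes, so the shares called were no higher than the background. Without overlap of libraries 8 were higher and 6 lower, against 29.7% and 31.2%. With library size alone the split was 4 and 9, and with library sizes taken without the 10 most abundant genes it was 3 and 10. The median was -0.02 (all genes -0.01). Besides Htra2, Timm44, Timm22, Timm9, Phb2 and Tomm40l, the genes that rose were Oma1 (0.29 ± 0.08), Tomm5 (0.27 ± 0.09) and Tomm22 (0.15 ± 0.05), and besides Trap1, Timm17a, Yme1l1 and Timmdc1 those that fell were Timm23 (-0.31 ± 0.07) and Timm21 (-0.22 ± 0.08). Leaving out each of the 12 libraries in turn kept 3 of the 9 higher calls (Htra2, Timm44 and Timm22) and 4 of the 6 lower calls (Trap1, Timm17a, Timm23 and Timmdc1). Leaving out wt saline replicate 1, any ko saline library or ko CL replicate 3 brought the count of higher calls to 3 to 5. Without ko CL replicate 1 the counts were again 9 and 6, but Afg3l2, Clpx and Phb were gained as higher and Tomm34 as lower, while Oma1, Tomm22, Tomm40l and Timm21 lost their calls. In the same comparison 16 of 18 macrophage markers rose and 2 fell (median 2.88), and 11 of 15 adipocyte markers fell (median -0.50). Of the 10 brown and beige markers 8 rose and 1 fell (median 1.55), and all 10 cell cycle genes rose (median 2.18). The part of these lists in the members' values was not tested.

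The responses of the 2 genotypes were compared by their difference, ko minus wt. For 28 genes the difference was called below 0 and for 2 above 0 (Htra2 and Tomm34), against 23.6% and 21.8% of all genes, and the median was -0.59 (all genes -0.03). With library size alone 18 of the 28 lower calls remained, not those of Clpp, Phb, Phb2, Timm21, Timm22, Timm50, Timm8a1, Tomm20, Tomm70a and Yme1l1, and the median was -0.36 (all genes 0.20). By genotype, 19 genes rose in wt, were not called in ko and had a called difference. Another 5 rose in wt and fell in ko with a called difference (Timm17a, Timm23, Timmdc1, Trap1 and Yme1l1), and 3 rose in both but less in ko (Phb2, Timm22 and Timm9). In 5 genes that rose in both genotypes the difference was not called (Oma1, Timm44, Tomm22, Tomm40l and Tomm5). The largest differences were Pmpcb (-1.16 ± 0.13, adjusted p = 1.86e-05), Hspa9 (-1.10 ± 0.17), Trap1 (-1.07 ± 0.14) and Grpel1 (-1.07 ± 0.13). Of the 28 lower calls, 25 held when each library was left out, and those of Phb2, Timm8a1 and Tomm20 did not. Tomm34, with a difference of 0.26 ± 0.10 (adjusted p = 0.0492), lost its call without any one of 11 libraries.

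Under CL, ko fat had less RNA of most members than wt fat. Of the 38 genes, 30 were lower and 2 higher (Htra2, 0.56 ± 0.10, and Tomm34, 0.24 ± 0.07), against 29.3% lower and 27.6% higher among all genes. With library size alone 19 were lower and 5 higher. Among members called in either fit, Oma1, Phb2, Tomm20, Tomm22, Tomm40, Tomm40l, Tomm5, Tomm70a and Yme1l1 turned above 0 under that scaling. Without overlap of libraries, 30 were lower and 2 higher, against 32.7% and 30.9%. The median was -0.60 (all genes 0.00). Trap1 was lowest at -1.13 ± 0.10 (a fold of 2.18 lower, adjusted p = 6.3e-07), followed by Pmpcb at -1.06 ± 0.09, Hspa9 at -0.98 ± 0.12 and Hspd1 at -0.94 ± 0.11. Leaving out each library in turn kept 27 of the 30 lower calls (not Tomm40, Tomm5 and Yme1l1). The 6 genes not called were Oma1, Timm13, Timm17b, Timm8a1, Tomm20 and Tomm22. This comparison uses the same wt CL libraries as the wt response. In whole tissue, fewer cells of a type and less RNA per cell cannot be told apart. Beside these values, 15 of 15 adipocyte markers were lower (median -1.32) and 16 of 18 macrophage markers higher and 2 lower (median 3.33). Of 11 fibroblast markers 10 were higher and 0 lower (median 1.04), and of 10 endothelial markers 9 were lower and 1 higher (median -1.08). The part of these lists in the members' values was not tested. Without ko CL replicate 1, 28 members were lower and 1 higher (median -0.51), and Tomm34 was no longer called (adjusted p = 0.0524).

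**Figure D3:**
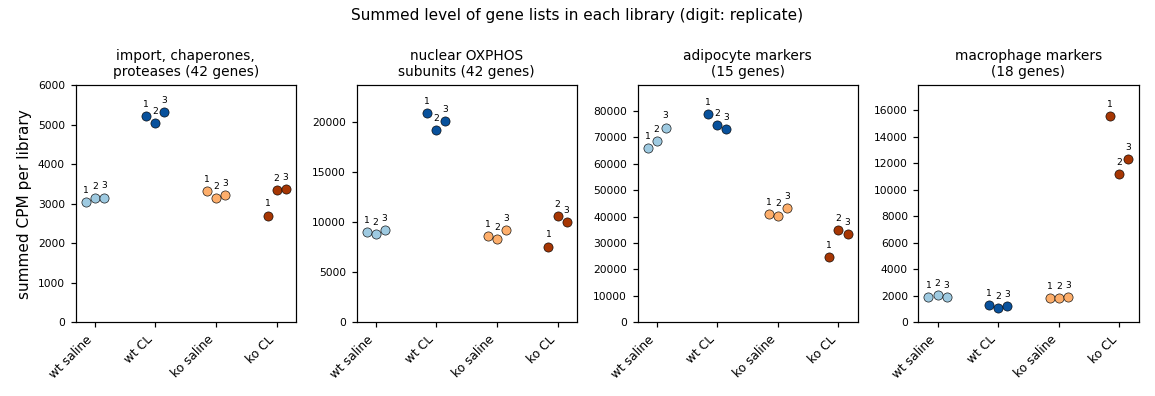
Summed CPM per library of the 42 import, chaperone and protease genes, 42 nuclear subunits of respiratory complexes, 15 adipocyte markers and 18 macrophage markers; the digit is the replicate. The member sum is 5036 to 5323 in wt CL and 2700 to 3377 in the other 9 libraries, the adipocyte sum is lower in both ko groups, and the macrophage sum is high only in ko CL.

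Under saline few of these genes were called between the genotypes. The members summed to 3109 ± 62.8 CPM in wt and 3228 ± 87.3 CPM in ko (SD, n = 3), and the median log2 difference was 0.03 (all genes -0.01). Grpel1 (0.33 ± 0.09, adjusted p = 0.0289), Pmpca (0.27 ± 0.08, adjusted p = 0.0406) and Yme1l1 (0.23 ± 0.07, adjusted p = 0.0444) were higher in ko and none was lower, against 7.99% higher and 6.45% lower of all genes. With library size alone 11 members were higher, with a median of 0.18 (all genes 0.15). Without overlap of libraries 8 were higher and 6 lower, against 19.4% and 18.2%. None of the 3 calls held when each library was left out in turn: without wt saline replicate 2 or 3 or ko saline replicate 1 or 2 no member was called higher, without wt saline replicate 1 or wt CL replicate 1 or 2 a single one was, and without ko CL replicate 1 the counts were 5 higher and 2 lower. With the same libraries, 10 of 15 adipocyte markers were lower in ko (median -0.71), and the ciliated epithelium list summed to 80.5 to 101 CPM in ko saline against 14.3 to 42.1 in wt saline. Their part was not tested.

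The other genes of mitochondrial biogenesis give the setting. In wt CL, 18 of 23 further import, assembly and processing genes rose (median 0.46), among them Dnajc15 (0.83 ± 0.09), a J protein of the TIM23 motor, Dnaja3 (0.75 ± 0.08), a matrix Hsp70 cochaperone, and Stoml2 (0.63 ± 0.06), a relative of the prohibitins. Of 45 mitochondrial ribosomal protein genes 42 rose (median 0.56), and all 42 nuclear subunits of respiratory complexes (median 1.06) and all 17 genes of the tricarboxylic acid cycle (median 1.21) rose too. The cytosolic and endoplasmic reticulum chaperones had a median of 0.11, with 8 of 22 higher and 4 lower, against 19.6% and 17.1% of all genes. The members summed to 34.5 ± 0.83 CPM per 100 CPM of respiratory subunits in wt saline and to 25.9 ± 0.79 in wt CL, without overlap, and to 37.0 ± 1.8 in ko saline and 33.6 ± 2.1 in ko CL, where the libraries overlapped (SD, n = 3). In ko CL against ko saline, 5 of the 23 further import genes rose and 8 fell (median -0.07), against 27.2% and 27.5% of all genes, the latter including Immp1l (-0.54 ± 0.10) and Immp2l (-0.53 ± 0.12), subunits of the inner-membrane peptidase. Under CL, 19 of the 23 were lower in ko than in wt and 1 higher, with Dnajc15 at -1.36 ± 0.09 and the disaggregase Clpb at -1.10 ± 0.10. The lower level was not particular to import genes. Under CL all 42 respiratory subunits (median -0.99), all 17 tricarboxylic acid cycle genes (median -1.06) and 43 of 45 ribosomal protein genes (median -0.48) were lower in ko, against 29.3% of all genes. Their medians for ko CL against ko saline were 0.13, 0.08 and -0.03 in the same order.

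**Figure D4:**
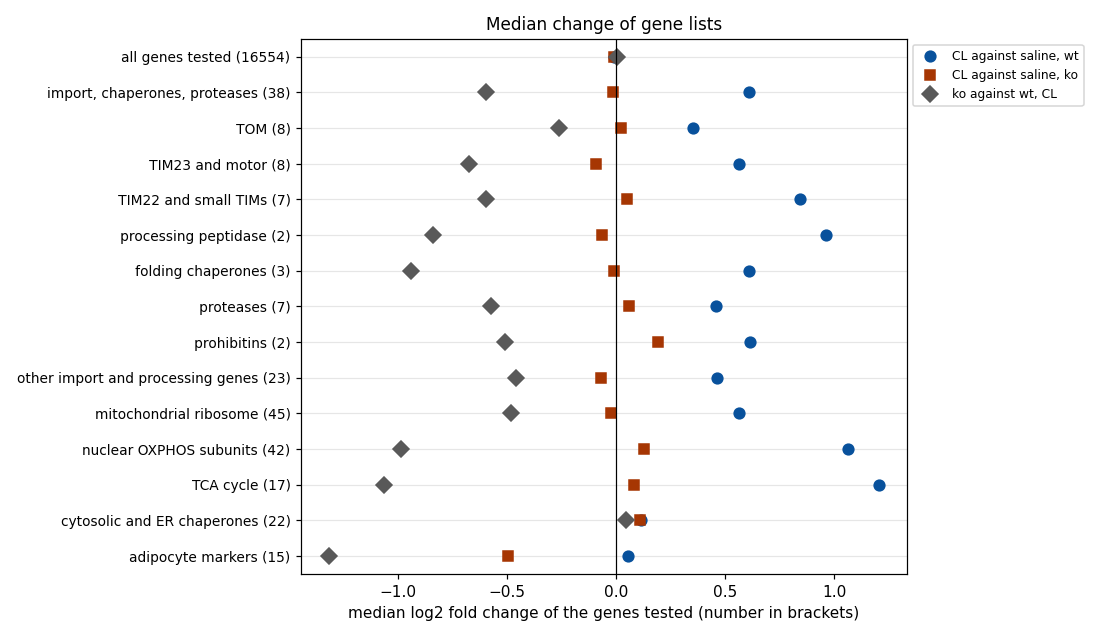
Median log2 fold change of the tested genes of each list (number in brackets) for CL against saline in wt (circles) and ko (squares) and for ko against wt under CL (diamonds). In wt CL the members lie at 0.61, between the other import genes (0.46) and the respiratory subunits (1.06); in ko they lie at -0.02, and in ko against wt under CL at -0.60.

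Of the regulators that have been linked to these genes, the transcription factors Atf4, Atf5 and Ddit3 of the mitochondrial stress response did not move as one. Of 7 tested genes of that response, 2 rose in ko CL, Atf4 (0.46 ± 0.06, adjusted p = 2.11e-05) and Ddit3 (0.41 ± 0.07), and Atf5 fell with a value of -0.40 ± 0.11 (adjusted p = 0.00797). Over all genes 27.2% rose and 27.5% fell in ko CL, so the shares called were near or below the background. In wt CL Fgf21 rose (1.62 ± 0.52) and Hsf1 fell (-0.39 ± 0.10). Under saline Atf4 was lower in ko (-0.39 ± 0.06, adjusted p = 0.00119), so that its ko CL level (85.6 ± 2.0 CPM) was near that of wt CL (84.5 ± 2.7 CPM). Under CL, Atf5 (-0.87 ± 0.11) and Chac1 (-0.90 ± 0.24) were lower in ko than in wt and Ddit3 was higher (0.33 ± 0.07). Among all genes 29.3% were lower and 27.6% higher there. The CL response was lower in ko than in wt for Atf5 (-0.61 ± 0.16). It was higher for Atf4 (0.41 ± 0.08), Ddit3 (0.40 ± 0.10) and Hsf1 (0.45 ± 0.14), against 23.6% lower and 21.8% higher of all genes. Among 16 regulators of mitochondrial gene expression, 9 rose in wt CL and 0 fell, against 19.6% and 17.1% of all genes. Those with the lowest adjusted p were the estrogen-related receptors Esrrg (1.98 ± 0.24) and Esrra (0.64 ± 0.09). Esrra also rose in ko CL (0.62 ± 0.09), whereas Esrrg fell there (-0.87 ± 0.24). Ppargc1a, which encodes the coactivator PGC-1α, was lower in ko than in wt under CL (-1.42 ± 0.18, adjusted p = 1.66e-05). It is also among the 10 brown and beige markers, which all rose in wt CL, by 0.71 or more. Its CL response was lower in ko than in wt, with a difference of -1.27 ± 0.25.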

How the data were processed

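RNA was sequenced from 12 pools of perigonadal fat. Per the submitters' processing notes the authors used STAR, HTSeq and GRCm38, and the deposited files hold raw read counts per gene, made with the reverse-strand setting per the file names, with the aligner's version and the annotation not given in the sources used here. For each file, the 5 summary lines (12.45% to 17.23% of its counts) were left out. Symbols, positions and exon lengths came from GENCODE M21, which matched 53274 of 53379 IDs. Counts were scaled by TMM and tested with edgeR 4.0.16 (quasi-likelihood, limma 3.58.1, R 4.3.3) in 1 model with a mean for each title group (8 residual degrees of freedom), after filterByExpr with a minimum count of 10, and p-values were adjusted by Benjamini-Hochberg over all 16554 genes tested and called at 0.05. CPM are counts scaled to the TMM library size, and standard errors were obtained by dividing each log2 fold change by the root of its F statistic. The script was tested on simulated data. Libraries of a group differed beyond counting noise (chi-square per degree of freedom 5.4 to 41.2), so none was counted as a duplicate, and at these depths the spread between pools limits the precision. Values in every library are given for the most abundant member of each role, the 4 largest called changes of each comparison among members with a mean of at least 5 CPM in 1 or more groups (Timm8a1 only in wt CL, where it is highest) and the paralog pairs, and Tomm34 was added after its values were seen. Other genes are the 4 of each list with the lowest adjusted p per comparison, of which some are named. The members and lists were chosen with earlier results of these data known. Alternatives were DESeq2 1.42.0, other scalings and filters, 2-group fits, the replicate block and leaving libraries out. The replicate numbers were not taken as pairs, since of 18 same-numbered pairs only 2 had deviations correlated over 0.1 (range -0.219 to 0.129). Atypical libraries (wt saline replicate 1 and ko CL replicate 2) were left out together as an alternative chosen after seeing the data. RefSeq promoter letters were read from the GRCm38.p6 table.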

Additional observations from a re-analysis of the deposited data

Results flagged for a closer look

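For 30 of the 38 genes the CL response differed between ko and wt (ko minus wt, log2) by the quasi-likelihood test of edgeR, adjusted after Benjamini-Hochberg, and each is given with its value. In the TIM23 group these were Hspa9 (-1.10), Grpel1 (-1.07), Timm17a (-1.01), Timm23 (-0.80), Timm50 (-0.44) and Timm21 (-0.42). In the TIM22 group they were Timm8b (-0.85), Timm10 (-0.83), Timm9 (-0.80), Timm8a1 (-0.73), Timm29 (-0.69) and Timm22 (-0.46). The outer-membrane genes were Tomm7 (-0.66), Tomm70a (-0.50), Tomm20 (-0.32) and, on the other side of 0, Tomm34 (0.26). The processing peptidase gave Pmpcb (-1.16) and Pmpca (-0.90), and the folding chaperones Trap1 (-1.07), Hspd1 (-0.86) and Hspe1 (-0.62). Among the proteases the values were -0.93 for Clpx, -0.85 for Lonp1, -0.75 for Afg3l2, -0.60 for Clpp, -0.46 for Yme1l1 and 0.51 for Htra2. The prohibitins Phb (-0.46) and Phb2 (-0.39) and the assembly factor Timmdc1 (-0.58) complete the set. Over the same libraries the summed adipocyte markers went from 41535 to 30980 CPM as means of ko saline and ko CL and the summed macrophage markers went from 1881 to 12995 CPM, and the part of these changes in the 30 values was not tested.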

How the results depend on the processing

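With DESeq2, its size factors, a minimum count of 50 and the 2-group fits, the direction of every member median was the same as in the fit described. Library size alone brought the all-gene median to -0.33 in the wt response, -0.10 in the ko response, 0.15 for the genotypes under saline, 0.39 under CL and 0.20 for the difference of responses. That scaling turned the all-gene split for wt CL from 3249 higher and 2836 lower to 1329 and 8048, for ko CL from 4497 and 4546 to 3701 and 5475, for saline from 1323 and 1068 to 3733 and 506, for ko against wt under CL from 4561 and 4847 to 8667 and 2237 and for the difference from 3607 and 3903 to 5386 and 2267. Under it the member medians were 0.29, -0.10, 0.18, -0.21 and -0.36 in the same order, and the members called were 21 higher in the wt response, 4 higher in the ko response, 11 higher under saline, 5 higher and 19 lower under CL and 18 lower for the difference. Changes of sign were listed only for members called in the fit described or under library size alone. These were, in the wt response, Tomm20 (-0.0027), Tomm22 (-0.081), Tomm40l (-0.020) and Yme1l1 (-0.056), and in ko against wt under CL, Oma1 (0.32), Phb2 (0.028), Tomm20 (0.29), Tomm22 (0.33), Tomm40 (0.046), Tomm40l (0.084), Tomm5 (0.16), Tomm70a (0.069) and Yme1l1 (0.16). Members called in neither fit are left out of these lists. Library sizes without the 10 most abundant genes gave medians of 0.43 in the wt response, -0.13 in the ko response and -0.46 under CL, with 3 higher and 10 lower in the ko response and 6 higher under saline. Without a low-count filter 4 members were higher in the ko response and 1 for the difference. The 2-group fits gave 4 higher and 3 lower in the ko response and 2 lower under saline, and the difference of responses, which needs all 4 groups, was not run that way. The replicate block gave 1 member higher under saline and 1 for the difference, and it kept 33 of 33 higher calls in the wt response and 30 of 30 lower calls under CL but 7 of 9 higher and 4 of 6 lower calls in the ko response (not Phb2, Tomm22, Timm21 and Yme1l1). Leaving out wt saline replicate 1 and ko CL replicate 2 together left 1 member higher under saline, 1 under CL and 1 for the difference.

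Leaving out each library in turn, the ko response had 3 to 9 members higher and a median of -0.10 to 0.049, the saline comparison 0 to 5 higher and 0 to 2 lower, ko against wt under CL 1 to 2 higher and a median of -0.66 to -0.51, and the difference of responses 1 to 2 higher and a median of -0.64 to -0.50. The cause of these shifts was not tested. Depth limits the 4 genes with 34 or fewer reads.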
